A study of Mus musculus with 5 samples.

Results

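The genes described are 9 members of the Hedgehog pathway, chosen by name from a table of 30046 features: the ligand *Ihh*, the receptor *Ptch1*, the signal transducer *Smo*, the co-receptors *Boc* and *Gas1*, the antagonist *Hhip* and the transcription factors *Gli1*, *Gli2* and *Gli3*. All 9 were matched by gene identifier to protein-coding genes. They were measured by RNA-seq in Cxcl12-GFP high, tdTomato+ stromal cells sorted from femurs of mice at postnatal day (P) 21. In 3 libraries the cells came from mice that carried Dlx5(CreER/+) together with Cxcl12(GFP/+) and R26R(tdTomato/+), and in these a tamoxifen pulse at embryonic day (E) 12.5 marks Dlx5-expressing cells of the fetal perichondrium and their descendants (Dlx5CE-E12.5 cells). In the other 2 libraries the Dlx5 driver was replaced by Fgfr3-iCreER, which after the same pulse marks fetal chondrocytes and their descendants (Fgfr3CE-E12.5 cells). All mice therefore carried a GFP allele at *Cxcl12*, a tdTomato reporter and tamoxifen exposure before birth, and only the Dlx5CE-E12.5 mice carried creER at 1 Dlx5 allele. Cells of littermates were pooled by genotype before the sort, and the epiphyseal growth plates were removed at dissection. The comparison asks whether marrow stromal cells that descend from these 2 fetal sources differ in the genes that send, receive and answer the Hedgehog signal.

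Hedgehog ligands bind Patched receptors at the cell membrane. Unbound Patched holds Smoothened inactive, and ligand binding releases it to act at the primary cilium, where the Gli proteins are turned from repressors into activators of transcription. In the growing bone, Indian hedgehog is made by prehypertrophic chondrocytes and is received by neighbouring chondrocytes, perichondrial cells and osteoblast precursors. *Ptch1*, *Gli1* and *Hhip* are themselves induced by the signal in many tissues and are widely used as its readout, and the protein products of *Ptch1* and *Hhip* dampen it.

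Total counts ranged from 22035650 to 32563758 in the Dlx5CE-E12.5 libraries and from 56355203 to 58166285 in the Fgfr3CE-E12.5 libraries. The 9 marrow stroma markers summed to 32770 to 34680 CPM (counts scaled to the normalized library size) in Dlx5CE-E12.5 cells and to 8712 to 13260 in Fgfr3CE-E12.5 cells, a sum that was mostly *Cxcl12* (22000 and 6935 CPM on average). All 9 had counts in every library. Of them, 6 were called higher in Dlx5CE-E12.5 cells, *Lepr* passed the adjusted p alone in that direction, *Pdgfrb* did not pass the test and *Foxc1* was called 7.08-fold higher in Fgfr3CE-E12.5 cells. The 15 chondrocyte markers summed to 136.3 to 142.2 CPM in Dlx5CE-E12.5 cells, where *Col9a1*, *Matn1*, *Ucma* and *Col10a1* had no counts, and to 3600 and 506.1 CPM in Fgfr3CE-E12.5 replicates 2 and 3. Most of the Dlx5CE-E12.5 sum was *Sox9*, the one marker of this list that was higher there (121.0 against 75.3 CPM on average), without passing the test. The 16 leukocyte markers summed to 1633 to 2156 CPM in Dlx5CE-E12.5 cells and to 4940 and 10530 CPM in Fgfr3CE-E12.5 replicates 2 and 3. Osteoblast markers (3986 to 5470 against 7376 to 9813 CPM) and cycling cell markers (220.3 to 391.1 against 694.8 to 831.8 CPM) also summed higher in Fgfr3CE-E12.5 cells. Of 10 osteoblast markers tested, 5 were called higher there and 3 did not pass. *Phex* was called 4.70-fold higher in Dlx5CE-E12.5 cells, and *Runx2* passed the adjusted p alone in that direction. The 6 osteoclast markers summed to 188.6 to 194.7 CPM against 247.5 to 247.7 CPM. Of the 5 tested, 4 were called higher in Fgfr3CE-E12.5 cells, and *Ctsk*, most of the sum, was not (176.7 against 171 CPM on average). *Dcstamp* and *Ocstamp*, genes of osteoclast fusion, had no counts in Dlx5CE-E12.5 cells. The 7 erythroid markers summed to 35930, 17590 and 23170 CPM in Dlx5CE-E12.5 replicates 1 to 3. In Fgfr3CE-E12.5 replicates 2 and 3 they summed to 13550 and 20140 CPM. Of them, *Hba-a1* and *Hbb-bt* were called higher in Dlx5CE-E12.5 cells and 5 did not pass the test. The part of all these markers in the results on the members was not tested. According to the study's methods, the groups were also sequenced on different instruments with different read lengths, which cannot be told apart from the lineage. The Fgfr3CE-E12.5 libraries differed from each other most in chondrocyte and leukocyte markers, and their values are given one by one.

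Of the 9 members, 7 passed the study's filter (10 CPM or more in 2 or more libraries), *Gli1* passed only a lower filter (1 CPM or more in 2 or more libraries), and *Ihh* passed neither. *Hhip* passed through its Dlx5CE-E12.5 libraries alone. A gene was called when the quasi-likelihood test of edgeR gave an adjusted p (Benjamini-Hochberg) under 0.05 and the log2 fold change was beyond 1 in either direction. Of the 8 members tested, *Smo* and *Gas1* were higher in Fgfr3CE-E12.5 cells, and *Ptch1*, *Gli3* and *Hhip* were lower. Over all 10088 genes tested at the study's filter, 16.4% were called higher in Fgfr3CE-E12.5 cells and 13.1% higher in Dlx5CE-E12.5 cells, and over 13225 genes at the lower filter the shares were 16.6% and 12.9%. The libraries of the 2 groups did not overlap for 2 members higher in Fgfr3CE-E12.5 cells and 4 higher in Dlx5CE-E12.5 cells, against 34.8% and 34.1% of all genes tested at the study's filter. The median log2 fold change (Fgfr3CE-E12.5 over Dlx5CE-E12.5) was -0.57 over the 8 members and 0.01 over all genes. In bulk samples, fewer cells that express a gene and less RNA per cell cannot be told apart.

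**Figure D1:**
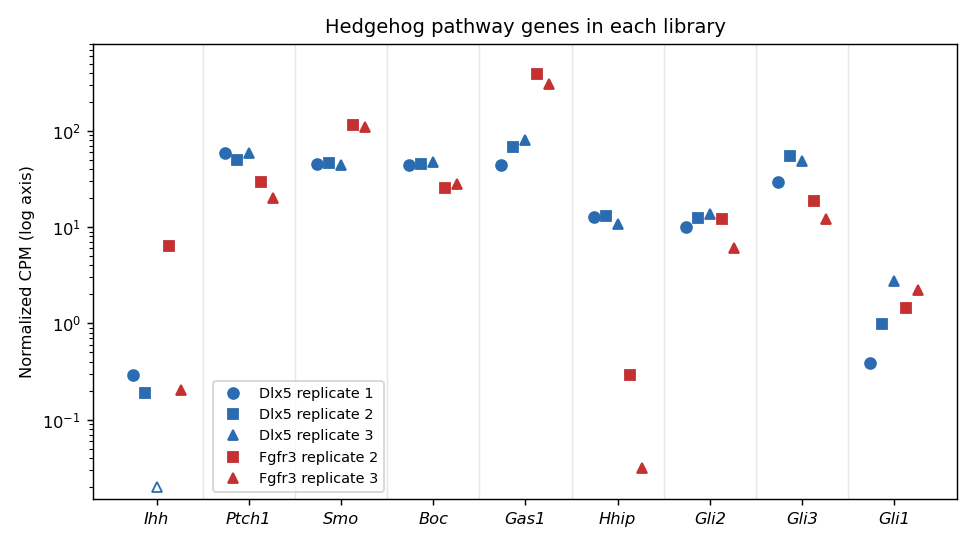
Normalized CPM (vertical log axis) of the 9 members in each of the 5 libraries, with Dlx5CE-E12.5 libraries in blue and Fgfr3CE-E12.5 libraries in red and 1 point per library; the open triangle at the lower edge is Ihh in Dlx5CE-E12.5 replicate 3, which had 0 counts. Smo and Gas1 lie higher and Ptch1, Boc, Hhip and Gli3 lower in both Fgfr3CE-E12.5 libraries than in every Dlx5CE-E12.5 library, whereas Ihh, Gli2 and Gli1 overlap.

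The 300-base windows around the transcription start (250 bases before it, 50 after) are shown for 2 targets of the pathway, *Hhip* and *Ptch1*, and for *Smo* and *Gas1*, the members called in the opposite direction. They are RefSeq sequences on GRCm38.p6, taken from a table in which 7 of the 9 members were matched, and their starts need not be the outermost start of the gene model used for counting. The windows are *Hhip*, chr8:80057959-80058258, minus strand; *Ptch1*, chr13:63565686-63565985, minus strand; *Smo*, chr6:29735247-29735546, plus strand; and *Gas1*, chr13:60177486-60177785, minus strand. Each is written 5′ to 3′ on the gene's strand, with CCACCC, the core of the sequence bound by Gli proteins, in capitals on either strand (GGGTGG on the other).
Hhip: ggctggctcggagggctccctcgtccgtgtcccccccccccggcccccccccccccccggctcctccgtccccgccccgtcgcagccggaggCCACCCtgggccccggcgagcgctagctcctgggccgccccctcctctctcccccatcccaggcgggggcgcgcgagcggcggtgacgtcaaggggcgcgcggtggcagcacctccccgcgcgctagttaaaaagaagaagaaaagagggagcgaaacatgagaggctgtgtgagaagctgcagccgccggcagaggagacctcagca
Ptch1: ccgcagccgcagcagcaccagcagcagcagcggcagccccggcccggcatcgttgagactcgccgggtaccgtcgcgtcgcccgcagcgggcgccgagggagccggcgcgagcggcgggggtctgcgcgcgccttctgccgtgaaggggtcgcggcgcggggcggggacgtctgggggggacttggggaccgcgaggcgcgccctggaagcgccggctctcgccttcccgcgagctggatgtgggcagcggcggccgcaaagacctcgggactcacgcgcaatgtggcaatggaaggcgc
Smo: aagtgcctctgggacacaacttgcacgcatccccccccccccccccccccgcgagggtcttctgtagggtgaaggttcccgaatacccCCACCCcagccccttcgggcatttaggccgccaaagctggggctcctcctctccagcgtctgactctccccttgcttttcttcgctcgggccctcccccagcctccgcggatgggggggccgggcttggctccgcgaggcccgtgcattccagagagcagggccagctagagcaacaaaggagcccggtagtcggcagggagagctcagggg
Gas1: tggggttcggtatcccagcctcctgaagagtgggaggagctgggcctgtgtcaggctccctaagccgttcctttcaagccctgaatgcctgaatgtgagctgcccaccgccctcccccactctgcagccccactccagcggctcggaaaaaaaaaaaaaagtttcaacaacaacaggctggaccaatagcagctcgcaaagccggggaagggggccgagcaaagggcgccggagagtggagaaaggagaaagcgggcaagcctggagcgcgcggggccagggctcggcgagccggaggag

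*Hhip* and *Smo* each hold the core once in this window, although they differed between the lineages in opposite directions, and *Ptch1* and *Gas1* do not hold it. Of the 7 member windows, 5 hold CCACCC (71.4%), against 31.5% of 32851 windows of the same length. The full consensus GACCACCCA, which contains the core, is in 0 of the 7 and in 0.253% of all windows, searched on both strands. The *Ptch1* window is 76.3% G and C with 47 CpG dinucleotides and the *Hhip* window 73.7% with 30, against medians of 52.7% and 7 over all windows. All the member windows lie above 52.7% G and C, from 62.3% (*Gas1*) to 76.3% (*Ptch1*). The G- and C-rich sequence GGGCGG is in 85.7% of the member windows, against 35.7% of all windows. The sequence CCAAT is in 14.3%, against 37.4%. The windows compared thus differ in base composition, and its part in the share with CCACCC was not tested. A match is only a match of letters, and its absence here says nothing about sites elsewhere.

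*Ihh* encodes the ligand Indian hedgehog (chr1:74945315-74951672, minus strand). Its counts were 9, 4 and 0 in Dlx5CE-E12.5 replicates 1 to 3, and 392 and 13 in Fgfr3CE-E12.5 replicates 2 and 3. These are 0.294, 0.188 and 0 normalized CPM against 6.37 and 0.205. Only Fgfr3CE-E12.5 replicate 2 was high, and the other Fgfr3CE-E12.5 library lay within the range of the Dlx5CE-E12.5 libraries. A fit without any filter gave a log2 fold change of 4.30 with an adjusted p of 0.0527 (quasi-likelihood test of edgeR, Benjamini-Hochberg adjusted). The level of *Ihh* in replicate 2 was 31.1 times that in replicate 3. Over the same pair of libraries the chondrocyte marker sum differed 7.11 times, and *Col10a1*, a collagen of hypertrophic chondrocytes, had 1350 and 14 counts. All 15 chondrocyte markers were higher in replicate 2, whereas none of the 16 leukocyte markers was. Whether chondrocytes in that library account for its *Ihh* was not tested. Of the related ligand genes, *Shh* had at most 2 counts and *Dhh* 4 to 17 counts in a library, and neither was tested.

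**Figure D2:**
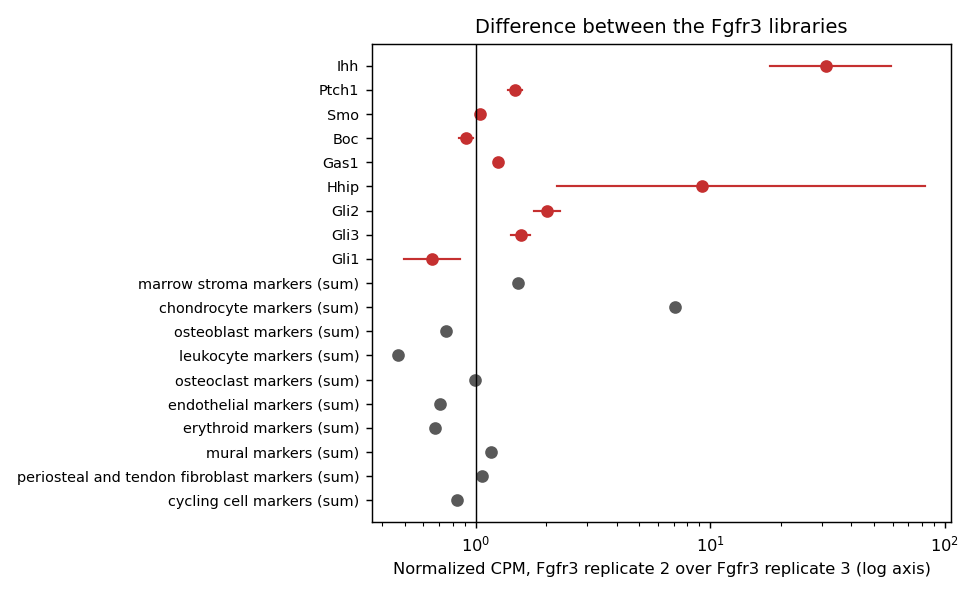
Ratio of normalized CPM in Fgfr3CE-E12.5 replicate 2 over replicate 3 (horizontal log axis) for the 9 members in red and for the summed markers of each cell type in grey, with exact 95% counting intervals as bars for the members and a vertical line at a ratio of 1. Ihh (31.1), Hhip (9.27) and the chondrocyte markers (7.11) lie far to the right, with a wide interval for Hhip (18 counts over 2), and no other ratio shown is above 2.02.

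*Ptch1* encodes the receptor that binds Hedgehog ligands and represses *Smo* without them (chr13:63508328-63573598, minus strand). It was measured at 59.3, 50.4 and 58.3 CPM in Dlx5CE-E12.5 cells and at 29.3 and 19.9 CPM in Fgfr3CE-E12.5 cells. Every Fgfr3CE-E12.5 library was below every Dlx5CE-E12.5 library. The means were 56.0 ± 4.87 (SD, n = 3) and 24.6 ± 6.67 (SD, n = 2), a 2.28-fold lower level in Fgfr3CE-E12.5 cells (log2 fold change -1.19 ± 0.21 SE, adjusted p = 0.00345 in the edgeR fit). *Ptch1* has the longest exon sequence of the members, 14185 bases. A trend on transcript length of each library's levels, relative to the gene mean, was fitted over all genes tested. With this trend removed, the log2 fold change of *Ptch1* was -0.45 (adjusted p = 0.0524 in the edgeR fit). Without Fgfr3CE-E12.5 replicate 3, the log2 fold change was -0.87. Scaling by library size alone gave -0.98.

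*Smo* encodes Smoothened, the transducer that Patched represses (chr6:29735503-29761365, plus strand). Its levels were 44.8, 46.4 and 44.0 CPM in Dlx5CE-E12.5 cells, and 115.7 and 110.4 CPM in Fgfr3CE-E12.5 cells. The libraries within each group lay close together and the groups did not overlap. *Smo* was thus 2.51-fold higher in Fgfr3CE-E12.5 cells, at 113.0 ± 3.77 (SD, n = 2) against 45.0 ± 1.24 CPM (SD, n = 3), with a log2 fold change of 1.33 ± 0.12 SE and an adjusted p of 0.000264 in the edgeR fit. The difference kept its direction and its adjusted p, but not the fold threshold, with the same kind of trend on GC content removed (log2 fold change 0.96, adjusted p = 0.00146) and with the trend on transcript length removed (1.00, adjusted p = 0.000636). Receptor and transducer therefore moved in opposite directions in the same libraries.

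*Boc* and *Gas1* encode membrane proteins that assist ligand binding to Patched. *Boc* (chr16:44485049-44558897, minus strand) was at 44.1, 45.5 and 47.1 CPM in Dlx5CE-E12.5 cells and at 25.8 and 28.4 CPM in Fgfr3CE-E12.5 cells. The groups did not overlap, and the fold change passed the test but not the fold threshold (log2 fold change -0.75 ± 0.14 SE, adjusted p = 0.00515 in the edgeR fit). At the adjusted p alone, 25.0% of all genes at the study's filter were higher in Fgfr3CE-E12.5 cells and 23.4% in Dlx5CE-E12.5 cells. With the GC trend removed, *Boc* reached -1.05.

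*Gas1* (chr13:60174405-60177365, minus strand) went the other way. It was measured at 44.6, 67.8 and 80.7 CPM in Dlx5CE-E12.5 cells and at 386 and 308.3 CPM in Fgfr3CE-E12.5 cells. Its lowest Fgfr3CE-E12.5 library was far above its highest Dlx5CE-E12.5 library, although the latter spread more than those of *Boc* or *Smo*. Means of 64.4 ± 18.3 (SD, n = 3) and 347.1 ± 55.0 CPM (SD, n = 2) gave a 5.40-fold higher level in Fgfr3CE-E12.5 cells (log2 fold change 2.43 ± 0.25 SE, adjusted p = 0.000432 in the edgeR fit). The call held in all 15 alternative settings, with log2 fold changes between 2.07 and 2.65. Of its exon bases, 19.9% overlap the gene model *Gm48488*, and since the libraries did not mark strand, reads there cannot be assigned to one of the 2 genes. The co-receptors thus differed in opposite directions, *Boc* passing the adjusted p only, and the third, *Cdon*, was at 2.00 ± 0.52 CPM (SD, n = 3) and 2.11 ± 0.03 CPM (SD, n = 2), with an adjusted p of 0.933 in the edgeR fit at the lower filter.

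*Hhip* encodes a membrane protein that binds and sequesters Hedgehog ligands and is a target of the signal (chr8:79965851-80058006, minus strand). Its counts were 391, 274 and 270 in Dlx5CE-E12.5 cells, and 18 and 2 in the more deeply sequenced Fgfr3CE-E12.5 cells. This gave 12.8, 12.9 and 10.7 CPM against 0.293 and 0.0316 CPM. Its level was nearly even among the Dlx5CE-E12.5 libraries and close to the limit of detection in Fgfr3CE-E12.5 cells, where 3 counts correspond to 0.0516 to 0.0532 CPM before normalization. *Hhip* was fitted 74.0-fold lower in Fgfr3CE-E12.5 cells (log2 fold change -6.21 ± 0.69 SE, adjusted p = 0.000546 in the edgeR fit). The size of this fold rests on few counts, and it was -5.30 without Fgfr3CE-E12.5 replicate 3 and -8.36 without replicate 2 on the log2 scale, called in both. *Hhip* was called in each of the 15 alternative settings. Between the Fgfr3CE-E12.5 libraries, the 18 counts of replicate 2, the library with more chondrocyte marker counts, and the 2 counts of replicate 3, which are under the floor of 3, gave a ratio of 9.27 with an exact 95% counting interval of 2.22 to 82.4.

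*Gli1* encodes an activator that the signal itself induces (chr10:127329882-127341974, minus strand). Its counts were low throughout, at 12, 21 and 70 in Dlx5CE-E12.5 cells and 89 and 140 in Fgfr3CE-E12.5 cells. The corresponding levels were 0.392, 0.989 and 2.78 CPM, and 1.45 and 2.21 CPM. Both Fgfr3CE-E12.5 libraries fell inside the range of the Dlx5CE-E12.5 libraries, which itself spanned 7.11-fold. The log2 fold change of 0.38 ± 0.80 SE did not pass the test (adjusted p = 0.73 in the edgeR fit at the lower filter). Its sign turned without Dlx5CE-E12.5 replicate 1 (-0.0765) and with the GC trend removed (-0.0945), so no direction can be given. A difference was therefore not detectable over the spread between these libraries. Of the *Gli1* exon bases, 6.55% overlap the gene models *Arhgap9* and *Gm47200*. Since the libraries did not mark strand, reads there cannot be assigned to a single gene.

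*Gli2* and *Gli3* encode the Gli proteins that carry the signal itself, *Gli2* acting mainly as activator and *Gli3* mainly as repressor. *Gli2* (chr1:118834132-119053619, minus strand) was at 9.92, 12.6 and 13.7 CPM in Dlx5CE-E12.5 cells and at 12.2 and 6.06 CPM in Fgfr3CE-E12.5 cells. These ranges overlapped, and the difference did not pass the test (log2 fold change -0.40 ± 0.35 SE, adjusted p = 0.375 in the edgeR fit). Without Fgfr3CE-E12.5 replicate 3 its sign turned, to 0.08.

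*Gli3* (chr13:15463235-15730026, plus strand) was at 29.2, 54.6 and 49.1 CPM in Dlx5CE-E12.5 cells, and at 18.9 and 12.1 CPM in Fgfr3CE-E12.5 cells. The groups did not overlap, with Dlx5CE-E12.5 replicate 1 nearest to the Fgfr3CE-E12.5 libraries. From 44.3 ± 13.3 (SD, n = 3) to 15.5 ± 4.79 CPM (SD, n = 2), *Gli3* was 2.85-fold lower in Fgfr3CE-E12.5 cells (log2 fold change -1.51 ± 0.33 SE, adjusted p = 0.0084 in the edgeR fit). This call was lost without Fgfr3CE-E12.5 replicate 3 (-1.17, adjusted p = 0.0605), and the fold fell just under the threshold with the transcript length trend removed (-0.98, adjusted p = 0.0204).

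**Figure D3:**
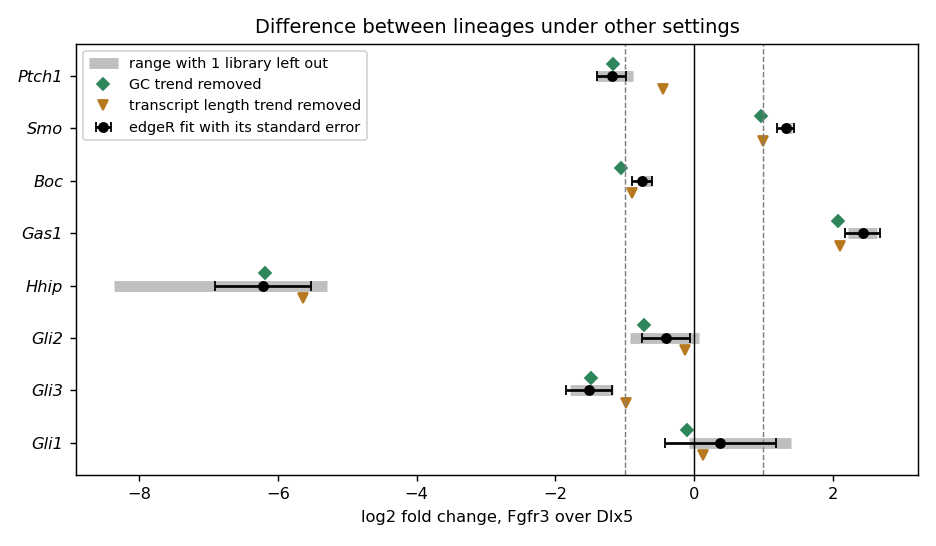
Log2 fold change of Fgfr3CE-E12.5 over Dlx5CE-E12.5 cells (horizontal axis) for the 8 members tested: black points with bars are the edgeR estimate and its standard error, grey bands the range when 1 library at a time was left out, diamonds and triangles the values with a trend on GC content or on transcript length removed, and dashed lines a log2 fold change of 1 in either direction. Gas1 and Hhip stay beyond the dashed lines throughout, Ptch1 moves to -0.45 when the length trend is removed, and Gli1 and Gli2 reach both sides of 0.

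Scaled by exon length as well (RPKM), *Gas1* was the highest member in both groups, at 21.7 ± 6.17 RPKM (SD, n = 3) in Dlx5CE-E12.5 cells and 117.2 ± 18.6 RPKM (SD, n = 2) in Fgfr3CE-E12.5 cells. In Dlx5CE-E12.5 cells it was followed by *Boc* (10.2), *Smo* (8.01), *Gli3* (4.62), *Ptch1* (3.95), *Gli2* (1.76), *Hhip* (1.34), *Gli1* (0.278) and *Ihh* (0.0527). *Gli3* and *Ptch1* did not differ there beyond the SD of *Gli3*, 1.39. In Fgfr3CE-E12.5 cells the order of RPKM was *Gas1*, *Smo* (20.1), *Boc* (6.09), *Ptch1* (1.74), *Gli3* (1.62), *Gli2* (1.33), *Ihh* (1.08), *Gli1* (0.366) and *Hhip* (0.0179). *Smo* thus stood above *Boc* in one group and below it in the other. *Hhip* went from above *Gli1* to the lowest place. From *Ptch1* to *Ihh*, the Fgfr3CE-E12.5 levels lay within the spread of *Ihh*, whose SD of 1.43 exceeded its mean.

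The targets *Ptch1*, *Gli1* and *Hhip* were set against the other 6 members as the difference of mean log2 CPM in each library, which is a description without a test. This difference was -1.06, -0.93 and 0.08 in Dlx5CE-E12.5 replicates 1 to 3, and -3.88 and -3.71 in Fgfr3CE-E12.5 replicates 2 and 3. With *Hhip* included the groups did not overlap, and the Fgfr3CE-E12.5 mean was lower by 3.16. Without *Hhip* the groups overlapped, with Fgfr3CE-E12.5 replicate 3 above Dlx5CE-E12.5 replicate 1. The difference between group means was -0.96 when *Hhip* was left out and -2.62 when *Ihh* was left out, so its size rested largely on *Hhip*. Among the targets, *Ptch1* and *Hhip* were called lower in Fgfr3CE-E12.5 cells and *Gli1* did not pass the test. The members that were not targets were divided as well, with *Smo* and *Gas1* higher, *Gli3* lower, *Boc* lower at the adjusted p alone and *Gli2* not past the test.

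The genes with the most similar pattern over the 5 libraries were found by the root mean square difference of centred log2 CPM among 13225 genes. For *Ptch1* these were *Dip2c* (0.0158), *Fnip1* (0.0487) and *Fbn1* (0.0522), each with both Fgfr3CE-E12.5 libraries below the Dlx5CE-E12.5 libraries. *Dip2c*, for instance, was at 21.4, 18.0 and 21.4 CPM against 10.5 and 7.24 CPM. For *Gli1* the nearest genes were *Tac2* (0.239), *Dner* (0.272) and *Fgfbp3* (0.293), whose patterns were less close. For *Hhip* they were *Gm15013* (0.193), *Gm7030* (0.278) and *Fam205a3* (0.365), of whose 50-base windows 23.5%, 75.6% and 100% also occur in transcripts of other genes, so their counts are uncertain. The corresponding share was 1.39% for *Hhip* itself and at most 4.51% for the other members apart from *Gas1* (17.0%). Of the genes nearest to *Ptch1*, *Fbn1* had a share of 19.7%, and 20.1% of its exon bases overlap the gene model *Gm9913*. For *Dip2c* and *Fnip1* the share was at most 0.549%.

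Beyond the members, 37 further genes of the pathway were listed, of which 36 were analysed and 33 tested. Of these, 5 were called higher in Fgfr3CE-E12.5 cells and 4 higher in Dlx5CE-E12.5 cells, or 27.3% in all, 8 passed the adjusted p alone and 16 did not pass. Their median log2 fold change was -0.10, and the share called was close to that of all genes. By role, no gene for ligands or their release was called among 4 tested, and 6 genes of reception at the membrane were tested.

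*Gpc3*, a glypican that competes with Patched for ligand, was at 19.2, 41.2 and 43.0 CPM in Dlx5CE-E12.5 cells and at 6.63 and 4.61 CPM in Fgfr3CE-E12.5 cells (log2 fold change -2.62 ± 0.41 SE, adjusted p = 0.00218 in the edgeR fit). Its libraries did not overlap, but *Gpc3* passed the study's filter through its Dlx5CE-E12.5 libraries alone.

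Of 15 genes that act at the cilium, 2 were called in each direction (26.7% in all) and the median log2 fold change was -0.42. Over all genes at the study's filter, 16.4% were called higher and 13.1% lower in Fgfr3CE-E12.5 cells. *Tulp3*, which carries receptors into the cilium, was lower in Fgfr3CE-E12.5 cells (-1.91, adjusted p = 0.00139 in the edgeR fit), as was *Dync2h1*, the heavy chain of the dynein that returns cargo from its tip (-1.55, adjusted p = 0.0114). *Grk2*, a kinase that acts on *Smo*, was higher (1.43, adjusted p = 0.00632), and so was *Efcab7*, an anchor of the *Evc* complex that binds *Smo* (1.33, adjusted p = 0.0284). The *Dync2h1* call was lost without Fgfr3CE-E12.5 replicate 3 (adjusted p = 0.0725) and with the length trend removed (-0.54), and *Efcab7* was lost when Dlx5CE-E12.5 replicate 2 or 3 or either Fgfr3CE-E12.5 library was left out (adjusted p 0.0537 to 0.0921). The *Efcab7* call was also lost with the length trend removed (1.06, adjusted p = 0.0559 in the edgeR fit). *Sufu*, the cytoplasmic inhibitor of the Gli proteins, did not pass the test (-0.35, adjusted p = 0.124).

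Among 8 genes that phosphorylate or degrade Gli proteins, *Prkaca*, the catalytic subunit of protein kinase A, was at 15.4, 12.4 and 13.1 CPM in Dlx5CE-E12.5 cells and at 85.2 and 69.7 CPM in Fgfr3CE-E12.5 cells (log2 fold change 2.50 ± 0.17 SE, adjusted p = 8.4e-05 in the edgeR fit). Its regulatory partner *Prkar1a* did not pass the test (-0.10, adjusted p = 0.637). *Cul3*, the scaffold of the ubiquitin ligase that uses *Spop*, was higher in Fgfr3CE-E12.5 cells (1.84, adjusted p = 0.000232), and *Gsk3b*, a kinase that phosphorylates Gli proteins, was lower (-1.28, adjusted p = 0.00219 in the edgeR fit). Without Fgfr3CE-E12.5 replicate 3 *Gsk3b* was at -0.95, and with the length trend removed at -0.74. These proteins serve other pathways too.

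Of 10 genes described as Hedgehog targets in other tissues, 8 were tested, 3 were called higher and 1 lower in Fgfr3CE-E12.5 cells, and the median log2 fold change was 0.55. Over all genes at the lower filter, 16.6% were called higher and 12.9% lower in Fgfr3CE-E12.5 cells. *Nkx3-2*, a transcription factor of cartilage, had 3, 1 and 4 counts in Dlx5CE-E12.5 cells and 130 and 180 in Fgfr3CE-E12.5 cells (log2 fold change 4.52 ± 0.65 SE, adjusted p = 0.00183 in the edgeR fit at the lower filter). *Foxf2*, a forkhead factor, had 9, 8 and 6 counts against 170 and 142 (3.02 ± 0.53 SE, adjusted p = 0.0041). In Fgfr3CE-E12.5 replicates 2 and 3, *Nkx3-2* was at 2.11 and 2.84 CPM and *Foxf2* at 2.76 and 2.24 CPM, beside chondrocyte marker sums of 3600 and 506.1 CPM, and the part of chondrocytes in these levels was not tested. Both passed the lower filter through the Fgfr3CE-E12.5 libraries alone.

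*Mycn*, a growth regulator, was higher (1.43, adjusted p = 0.0179 in the edgeR fit at the lower filter), a call lost without Dlx5CE-E12.5 replicate 3 or Fgfr3CE-E12.5 replicate 2 (adjusted p 0.0646 and 0.0817). *Bmp4*, a secreted growth factor, was at 402.7, 294.9 and 274.4 CPM in Dlx5CE-E12.5 cells and at 73.6 and 60.2 CPM in Fgfr3CE-E12.5 cells (-2.28 ± 0.22 SE, adjusted p = 0.000336 in the edgeR fit). Its libraries did not overlap. The further targets thus differed in both directions.

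**Figure D4:**
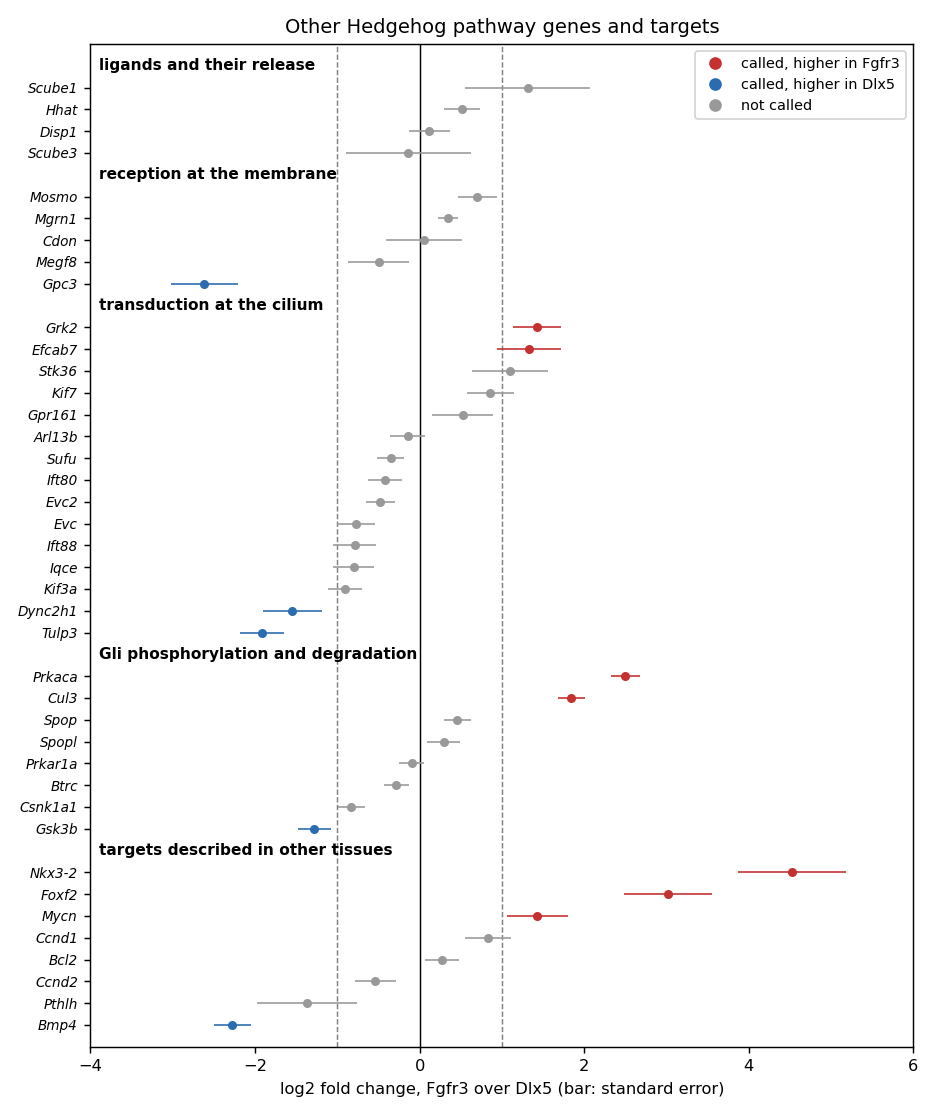
Log2 fold change of Fgfr3CE-E12.5 over Dlx5CE-E12.5 cells with its standard error (horizontal axis) for further pathway genes and targets tested, 1 row per gene, grouped by role, with called genes in red (higher in Fgfr3CE-E12.5 cells) or blue (higher in Dlx5CE-E12.5 cells). Called genes appear on both sides of 0, from Gpc3 at -2.62 to Nkx3-2 at 4.52.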

How the data were processed

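RNA-seq libraries (SMART-Seq cDNA, Nextera XT, which does not mark strand) were made from 3 Dlx5CE-E12.5 and 2 Fgfr3CE-E12.5 samples. The authors aligned reads to mm10 and deposited gene counts without normalization (TopHat2 2.0.13 and Bowtie2 2.2.1 per the submitters' processing notes). The role of HTSeq, also listed, and its strand setting are not given in the sources used here. The authors' size-factor-normalized and rlog tables were not used.

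Groups came from the sample labels. They name a HiSeq for all libraries, whereas the methods give a NovaSeq with long paired-end reads for Dlx5CE-E12.5 and a HiSeq with short single-end reads for Fgfr3CE-E12.5. The smallest detectable amount, 3 counts, covers counting error only. Littermates were pooled by genotype, and the study calls the libraries biologically independent. The labels do not tie libraries to litters, so p-values measure the spread between these samples.

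The edgeR 4.0.16 package (R 4.3.3) was applied to the counts (TMM, quasi-likelihood test, lineage as the one term, two-sided, Benjamini-Hochberg over all genes of the fit). Protein-coding genes and reporters that reached a CPM of 10 in 2 or more libraries were tested, and genes of the lists that failed this were taken from a fit at a CPM of 1. Normalized CPM were computed on the library size multiplied by the TMM factor. Coordinates and exon lengths are those of GENCODE M21 (GRCm38). The difference between targets and other members used a prior count of 0.5.

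Alternatives were DESeq2 1.42.0 size factors, library size alone, edgeR's exact test, DESeq2's Wald test, other filters, all features and no fold threshold. Others were a replicate block, removal of a loess trend on GC content or transcript length, a prior count of 2, and each library left out. The loess trend was fitted in each library to log2 CPM relative to the gene's mean over the libraries. Leaving *Ihh* or *Hhip* out of the target difference was added after seeing the data. The fits were checked on simulated counts. The members and lists were chosen with earlier results of these data known. All members are named, with the called genes of each further list (the 8 with the largest fold change where more were called) and the 3 genes nearest in pattern to *Ptch1*, *Gli1* and *Hhip*. A further gene of the pathway list is counted but not reported by name here.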

Additional observations from a re-analysis of the deposited data

How the results depend on the processing

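Each member's log2 fold change was recomputed under 15 alternatives. *Gas1* and *Hhip* kept their direction and call in all 15, with ranges of 2.07 to 2.65 and -8.36 to -5.30. Scaling by library size alone, which moved the median log2 fold change of all genes from 0.01 to 0.22 and the share of calls higher in Fgfr3CE-E12.5 cells from 55.6% to 66.3%, left *Ptch1* at -0.98. With the GC trend removed, *Smo* fell under the fold threshold (0.96), *Boc* passed it (-1.05), *Gli1* turned sign (-0.0945), and 1 member was called higher in Fgfr3CE-E12.5 cells. With the transcript length trend removed, *Ptch1* (-0.45), *Smo* (1.00) and *Gli3* (-0.98) lost their calls, leaving 1 member called in each direction. The cause was not tested. Leaving out 1 library at a time gave -1.42 to -0.87 for *Ptch1*, -1.79 to -1.17 for *Gli3*, -0.92 to 0.08 for *Gli2* (0.0796 without Fgfr3CE-E12.5 replicate 3) and -0.08 to 1.40 for *Gli1* (-0.0765 without Dlx5CE-E12.5 replicate 1). Members called higher in Dlx5CE-E12.5 cells then numbered 1 to 3 (1 without Fgfr3CE-E12.5 replicate 3), genes called higher in Fgfr3CE-E12.5 cells at the study's filter 997 to 1680, further pathway genes 3 to 6 higher in Fgfr3CE-E12.5 and 2 to 6 higher in Dlx5CE-E12.5 cells, and further targets 0 to 3 higher in Fgfr3CE-E12.5 cells. *Foxf2* and *Nkx3-2* could not pass the filter with 1 Fgfr3CE-E12.5 library, since the filter asks for 2. Without the fold threshold, 2517 genes were higher in Fgfr3CE-E12.5 and 2363 in Dlx5CE-E12.5 cells at the study's filter, 2753 were higher in Dlx5CE-E12.5 cells at the lower filter, and 8 and 9 of the further pathway genes were higher in Fgfr3CE-E12.5 and Dlx5CE-E12.5 cells. With all features in the fit, 3761 were higher in Dlx5CE-E12.5 cells at the lower filter. The difference between targets and other members was -2.62 without *Ihh* and -0.96 without *Hhip*, against -3.16 with all. The replicate numbers 2 and 3 that the groups share name pools of different mouse lines. The deviations of same-numbered libraries from their group means correlated by 0.13 and -0.0527. With 2 Fgfr3CE-E12.5 libraries these deviations mirror each other, so the values cannot show whether same-numbered libraries share a batch. With the replicate block, the calls of all 8 tested members were unchanged (Ptch1 -1.17, *Smo* 1.32, *Boc* -0.77, *Gas1* 2.22, *Gli3* -1.77, *Hhip* -6.32). Depth limited the level of *Hhip* in Fgfr3CE-E12.5 cells, where 1 library was under the floor of 3 counts, whereas *Ihh* and *Gli1* differed between libraries of one group by more than their counting error.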
